A study of Hyacinthus orientalis with 189 samples.

Results

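Anthocyanidin 3-O-glucosyltransferase, the enzyme that attaches glucose to anthocyanidins, was followed through the hyacinth perianth by means of 18 unigenes. They were all the unigenes whose KEGG orthology (KO) description in the deposited annotation contained the name of the enzyme (K12930), and they were 18 of 494326 unigenes in all. RNA-Seq libraries came from 7 cultivars of the hyacinth (Hyacinthus orientalis), namely ‘Jan Bos’ (red), ‘Pink Pearl’ (pink), ‘Gipsy Queen’ (orange), ‘City of Haarlem’ (yellow), ‘China Pink’ (pinkish white), ‘Delft Blue’ (blue) and ‘Peter Stuyvesant’ (dark purple). ‘China Pink’ is a sport, a bud mutant, of ‘Delft Blue’. Flowers were taken as green buds (Stage B), as coloured buds (Stage C) and at full anthesis (Stage A), and the perianth of each was divided, after the stamens and pistil had been removed, into its tube, its outer lobes and its inner lobes. There were 3 flowers per cultivar and stage, which made 63 flowers with 3 libraries each, all from cold-stored bulbs grown outdoors. The labels do not state whether the flowers of a group came from separate bulbs, so the p-values measure the spread between these flowers only.

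Anthocyanins are the red, pink, purple and blue vacuolar pigments of petals. Chalcone synthase, chalcone isomerase, flavanone 3-hydroxylase, dihydroflavonol reductase and anthocyanidin synthase build the anthocyanidin in turn, with flavonoid 3'-hydroxylase taking part for some anthocyanidins only. The 3-O-glucosyltransferase then transfers glucose from UDP-glucose to the anthocyanidin. This turns an unstable aglycone into a stable, soluble anthocyanin that can be stored in the vacuole. Related enzymes of the same family add sugars to flavonols.

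Total counts ranged from 12602472 to 20175882 per library, with a median of 13822438, and the 18 unigenes took between 0.0134% and 0.662% of them. With 63 libraries per stage, the median share was 0.0609% in green buds, 0.189% in coloured buds and 0.0986% at full anthesis. All 15 unigenes of the class B organ identity genes, which mark petals and petal-like organs, were present, and their summed FPKM, a fragment count scaled to unigene length and library total, was between 88.5 and 5118 over the libraries. The 59 unigenes of light-harvesting complex II, which mark green tissue, had median summed values of 81112 FPKM in outer lobes, 74078 FPKM in inner lobes and 30898 FPKM in tubes at Stage B. At Stage C these medians were 2849, 2489 and 4941 FPKM. The 62 unigenes named for pollen or anther were all present too, with a median of 1349 FPKM (500 to 5260) in the tube at Stage A against 855 FPKM in outer and 834 FPKM in inner lobes. The part of green tissue and of pollen in the results below was not tested. In whole tissue pieces such as these, fewer cells of a type and less RNA per cell cannot be told apart.

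The 18 unigenes fell into 2 main sets by the best protein match that the annotation gives. The best match was a flavonoid 3-O-glucosyltransferase of the spider lily Lycoris sprengeri for 6 unigenes, called Lycoris-matched here. It was a UDP-glucose:flavonoid 3-O-glucosyltransferase of the grape hyacinth Muscari armeniacum for 8 unigenes, called Muscari-matched here. Of the other 4, Cluster-20417.235221 matched an anthocyanidin 3-O-glucosyltransferase of Iris x hollandica, Cluster-20417.239192 one of coconut and Cluster-20417.304316 one of oil palm, while Cluster-5222.0 had no match. The KO name is itself a match. In Swiss-Prot, the best entry of 8 members was instead a myricetin 3-O-rhamnosyltransferase, and that of Cluster-20417.238665 and Cluster-20417.238468 was an anthocyanidin 3-O-galactosyltransferase.

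The Lycoris-matched unigenes were short, from 301 to 777 bp, and took 69.2% of all counts of the 18 members. The Muscari-matched unigenes ran from 516 to 2524 bp and took 27.98%. The unigenes come from a de novo assembly, so several of them may be pieces or alleles of one transcript, and reads that fit more than one were divided between them by RSEM. The value of a single short unigene is uncertain for that reason. The FPKM values imply an effective length shorter than the unigene by 265 to 294 bp, so that FPKM is high for the shortest members. By mean FPKM over all libraries Cluster-20417.238665 (478 bp) led with 1086 FPKM, before Cluster-20417.240155 (777 bp) with 890 FPKM. Per kilobase of whole unigene, a scale added after seeing the data, the order turned to 560 CPM (counts scaled to the library total) per kb for Cluster-20417.240155 and 435 for Cluster-20417.238665. Next by FPKM came Cluster-20417.233588 (808), Cluster-20417.238468 (632) and Cluster-20417.239094 (441), all Lycoris-matched. Cluster-20417.235221 (137), Cluster-20417.235098 (127), Cluster-20417.228929 (107), Cluster-20417.239184 (103) and Cluster-20417.239192 (100 FPKM) followed. The other Muscari-matched members were Cluster-20417.236750 (77.3), Cluster-20417.243771 (63.8), Cluster-20417.237805 (56.8), Cluster-20417.242365 (53.5), Cluster-20417.211066 (13.9) and Cluster-20417.211067 (2.75 FPKM). Cluster-20417.304316 had 591 counts in 92 libraries and Cluster-5222.0 had 17 counts in 3 libraries, which was too few to test.

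**Figure D1:**
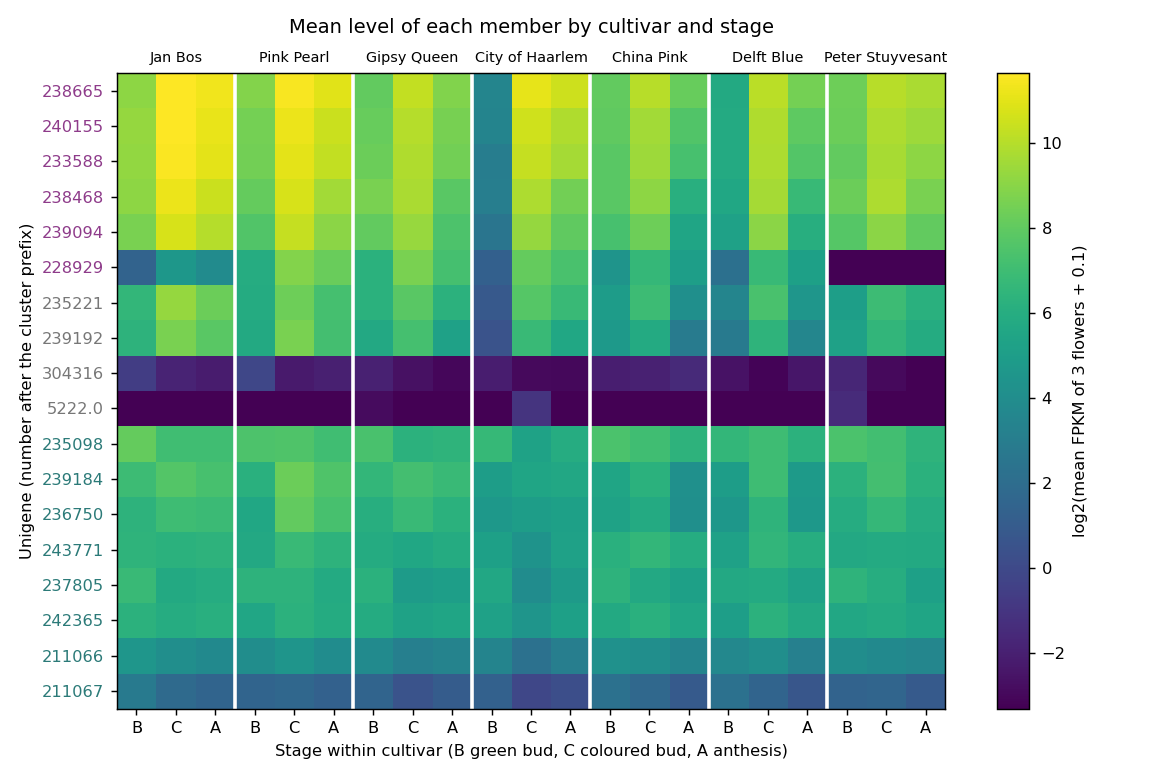
Mean level of each of the 18 unigenes (rows, by the number after the cluster prefix) in the 21 combinations of cultivar and stage (columns), as log2(mean FPKM of 3 flowers + 0.1). Labels in purple are Lycoris-matched, in grey other and in teal Muscari-matched unigenes. The Lycoris-matched rows are dark at Stage B of ‘City of Haarlem’, and Cluster-20417.228929 is at the floor throughout ‘Peter Stuyvesant’.

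Summed over the 18 unigenes, the level was highest at Stage C in the mean of every cultivar. ‘Jan Bos’ had 1080, 981 and 1640 CPM in its 3 flowers at Stage B, 4870, 4985 and 2112 CPM at Stage C and 2681, 4130 and 2273 CPM at Stage A. ‘Pink Pearl’ had 825, 629 and 840 CPM at Stage B, 4365, 3282 and 3359 CPM at Stage C and 2511, 1013 and 2908 CPM at Stage A. ‘City of Haarlem’ had 262, 178 and 234 CPM at Stage B, 1784, 2003 and 1698 CPM at Stage C and 1394, 1421 and 836 CPM at Stage A. In these 3 cultivars every coloured bud lay above every green bud. The same held in ‘Gipsy Queen’ (782 ± 203 to 1651 ± 187 CPM, SD, n = 3), ‘Delft Blue’ (271 ± 46.9 to 1558 ± 527 CPM) and ‘Peter Stuyvesant’ (755 ± 147 to 1529 ± 613 CPM). In ‘China Pink’ the flowers overlapped, with 501, 502 and 858 CPM at Stage B and 1965, 485 and 1129 CPM at Stage C. The ratio of the Stage C to the Stage B mean ran from 1.92 in ‘China Pink’ to 8.14 in ‘City of Haarlem’, as a description with no test, since it is a sum over chosen members.

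The cultivars stood in a different order at each stage. At Stage C the order of the means was ‘Jan Bos’ (3989 CPM), ‘Pink Pearl’ (3669), ‘City of Haarlem’ (1828), ‘Gipsy Queen’ (1651), ‘Delft Blue’ (1558), ‘Peter Stuyvesant’ (1529) and ‘China Pink’ (1193 CPM). Only the step from ‘Pink Pearl’ to ‘City of Haarlem’ separated neighbours without overlap of flowers. At Stage B ‘City of Haarlem’ came last with 225 ± 42.5 CPM (SD, n = 3), overlapping ‘Delft Blue’ (271 ± 46.9), and both lay below every flower of ‘China Pink’ (620 ± 206). The other 4 cultivars at Stage B had means from 755 to 1234 CPM and overlapped their neighbours. At Stage A the order was ‘Jan Bos’ (3028 ± 976), ‘Pink Pearl’ (2144 ± 999.6), ‘City of Haarlem’ (1217 ± 330), ‘Peter Stuyvesant’ (1041 ± 41.6), ‘Gipsy Queen’ (752 ± 699), ‘Delft Blue’ (483 ± 288) and ‘China Pink’ (383 ± 295 CPM). Each neighbour in it overlapped the next.

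The 2 sets of unigenes behaved unlike each other in these sums. The Lycoris-matched sum in ‘City of Haarlem’ was 9.95, 4.85 and 16.3 CPM in the 3 green buds and 1548, 1833 and 1526 CPM in the 3 coloured buds, a ratio of means of 158. In ‘Delft Blue’ it went from 60.5 ± 35.7 to 1070 ± 446 CPM (SD, n = 3), a ratio of 17.7. In the other 5 cultivars the ratio lay between 2.93 in ‘Peter Stuyvesant’ and 6.65 in ‘Pink Pearl’, and flowers of the 2 stages overlapped in ‘China Pink’ and ‘Peter Stuyvesant’. The Muscari-matched sum had ratios from 0.676 in ‘City of Haarlem’ to 2.69 in ‘Pink Pearl’, and it was without overlap higher at Stage C in ‘Pink Pearl’ and ‘Delft Blue’ only, among the 7 cultivars. The Lycoris-matched share of the members' counts in ‘City of Haarlem’ was thus 4.50 ± 2.22% (SD, n = 3) in green buds, 89.4 ± 2.43% in coloured buds and 82.0 ± 1.84% in open flowers. In ‘Jan Bos’ the corresponding shares were 49.6 ± 9.34%, 80.7 ± 6.82% and 79.9 ± 1.97%.

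**Figure D2:**
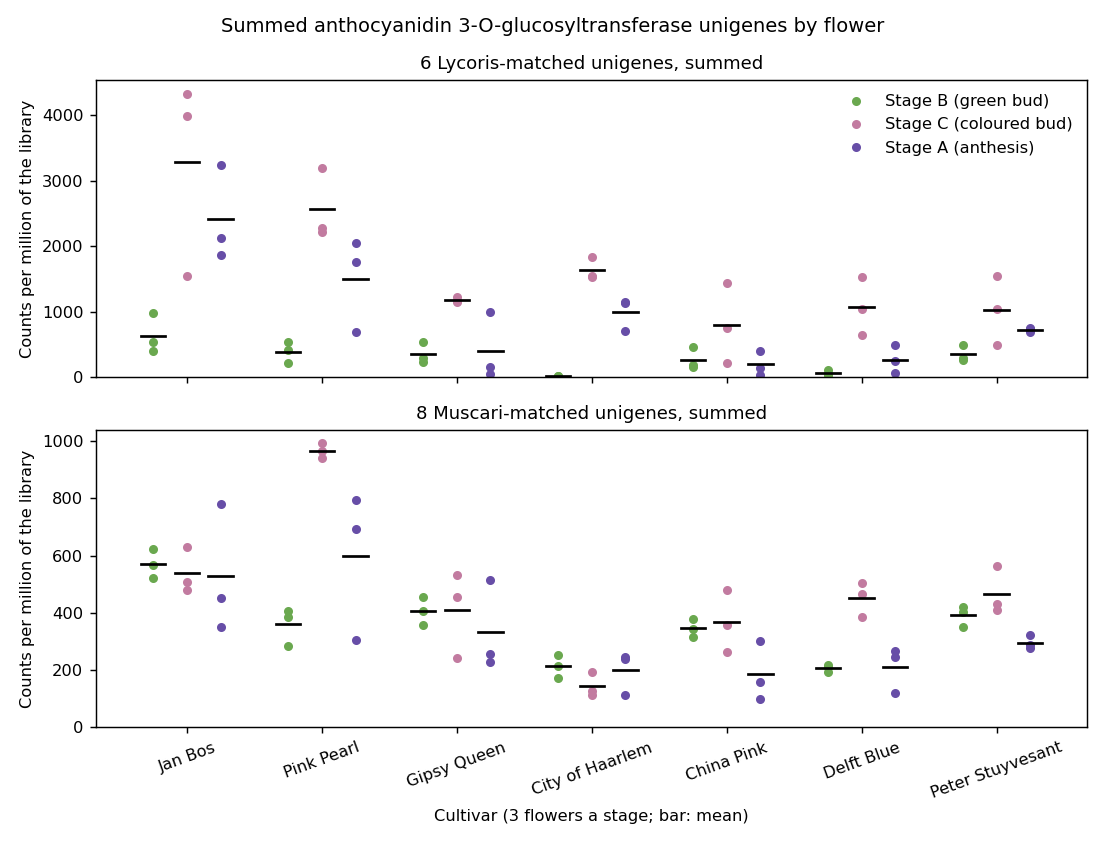
Summed CPM of the 6 Lycoris-matched (upper panel) and 8 Muscari-matched unigenes (lower panel) in each of 63 flowers, by cultivar and stage; points are flowers and bars are means of 3. The Lycoris-matched sum in ‘City of Haarlem’ lies between 4.85 and 16.3 CPM in green buds and between 1526 and 1833 CPM in coloured buds.

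To ask which unigenes changed as the buds coloured, the 3 pieces of each flower were summed and tested across all unigenes with edgeR's quasi-likelihood test. A unigene was called at a Benjamini-Hochberg adjusted p under 0.05 with an absolute log2 fold change over 1. For the mean over the 7 cultivars, 10 of 17 tested members were called between Stage B and Stage C, against 22.5% of all 202252 unigenes tested. Of these, 9 were higher at Stage C (7.70% of all unigenes) and 1 was lower (14.8%). The median log2 fold change was 1.61 over the 17 members and -0.23 over all tested unigenes, or -0.35 over all with median-ratio size factors. These fits use TMM library sizes, whereas FPKM is relative to the library total, so a fitted change can lie above the ratio of 2 FPKM values.

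The 5 leading Lycoris-matched unigenes rose together. Cluster-20417.240155 had 9.75, 4.08 and 18.1 FPKM in the 3 green buds of ‘City of Haarlem’ and 1426, 1642 and 1422 FPKM in its coloured buds. In ‘Jan Bos’ it had 550, 384 and 909 FPKM at Stage B and 3732, 4056 and 1569 FPKM at Stage C. In ‘Peter Stuyvesant’ the values were 276, 442 and 239 FPKM and then 886, 453 and 1331 FPKM. Its coloured buds were all above its green buds in 6 cultivars, the exception being ‘China Pink’ (188, 131 and 444 FPKM, then 1318, 213 and 720 FPKM). The log2 fold change was 3.51 ± 0.29 (SE, adjusted p = 3.9e-15, edgeR). Cluster-20417.238665 rose by 3.84 ± 0.29 (adjusted p = 2.1e-16), Cluster-20417.233588 by 3.57 ± 0.29, Cluster-20417.238468 by 3.34 ± 0.30 and Cluster-20417.239094 by 3.29 ± 0.30 on the log2 scale. For Cluster-20417.228929, the sixth, a mean over cultivars could not be fitted, because ‘Peter Stuyvesant’ had no count of it.

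A pair of members outside both sets moved with them. Cluster-20417.235221, the Iris-matched unigene, had 0, 2.22 and 2.93 FPKM in the green buds of ‘City of Haarlem’ and 200, 233 and 205 FPKM in its coloured buds, and it rose by 3.69 ± 0.35 over all cultivars on the log2 scale (adjusted p = 3.4e-13, edgeR). Cluster-20417.239192, the coconut-matched unigene, had 0.957, 0.18 and 2.86 FPKM and then 103, 131 and 110 FPKM, and it rose by 3.25 ± 0.30 (adjusted p = 2.9e-13, edgeR). Green and coloured buds of ‘City of Haarlem’ were far apart in both.

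Of the 8 Muscari-matched unigenes, 2 rose past the threshold and 6 did not pass it. Cluster-20417.236750, the longest member at 2524 bp, had 49.4, 53.5 and 42.4 FPKM in green buds and 275, 267 and 270 FPKM in coloured buds of ‘Pink Pearl’. In ‘City of Haarlem’ it had 26.6, 21.4 and 27.9 FPKM and then 43.3, 25.7 and 26.2 FPKM, which overlap. It rose by 1.53 ± 0.16 over all cultivars on the log2 scale (adjusted p = 2.0e-11, edgeR), and Cluster-20417.239184 rose by 1.61 ± 0.18 (adjusted p = 5.1e-11). Cluster-20417.243771 (0.75 ± 0.11) and Cluster-20417.242365 (0.64 ± 0.10) were past the adjusted p (5.4e-08 and 8.1e-07, edgeR) but not past the fold. Cluster-20417.235098 (-0.01 ± 0.12), Cluster-20417.237805 (-0.23 ± 0.11), Cluster-20417.211066 (0.24 ± 0.13) and Cluster-20417.211067 (-0.16 ± 0.15) passed neither. In FPKM, which is not TMM-scaled, Cluster-20417.237805 lay lower in every coloured than in every green bud in 5 of 7 cultivars.

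The unigene that fell, Cluster-20417.304316, had few counts. Its log2 fold change was -1.37 ± 0.45 (adjusted p = 0.011, edgeR), from 591 counts in all. Without the flowers numbered 3 it was -0.79, and its adjusted p over the 10 settings tried ran from 0.0015 to 0.51.

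From coloured bud to full anthesis, 5 of 17 members fell for the mean over cultivars and none rose, against 4.38% of all unigenes called lower. These comparisons share the Stage C flowers with those above. Cluster-20417.238468 fell by 1.60 ± 0.28, Cluster-20417.239094 by 1.56 ± 0.27 and Cluster-20417.233588 by 1.03 ± 0.26 on the log2 scale (adjusted p = 7.7e-06, 9.4e-06 and 0.002, edgeR). Cluster-20417.239192 fell by 1.54 ± 0.28 and Cluster-20417.235221 by 1.42 ± 0.30. Their partners Cluster-20417.240155 (-0.92 ± 0.26, adjusted p = 0.0054, edgeR) and Cluster-20417.238665 (-0.79 ± 0.26, adjusted p = 0.017) were past the adjusted p but not the fold. Without the flowers numbered 2 the count of members called was 8. The Muscari-matched unigenes had log2 fold changes between -0.74 and 0.09, and none was called. Among them Cluster-20417.239184 (-0.74 ± 0.17, adjusted p = 0.0007, edgeR) and Cluster-20417.236750 (-0.63 ± 0.16, adjusted p = 0.0019) were past the adjusted p but not the fold.

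Single cultivars differed in how far the members moved, a set of contrasts added after seeing the data. Between Stage B and Stage C, 14 of 17 members rose in ‘Delft Blue’ (10.9% of all unigenes rose there), 10 rose in ‘China Pink’ (11.5%), 8 in ‘Jan Bos’ (7.66%), 7 in ‘Gipsy Queen’ (8.21%) and 1 in ‘Peter Stuyvesant’ (4.30%). In ‘Pink Pearl’ 12 rose and 1 fell (17.8% of all unigenes called in either direction), and in ‘City of Haarlem’ 8 rose and 1 fell (21.1%). In CPM, every coloured bud lay above every green bud for 14 of 17 members in ‘Delft Blue’ and 2 in ‘China Pink’. That count was 13 in ‘Pink Pearl’, 10 in ‘Jan Bos’, 8 in ‘Gipsy Queen’, 8 in ‘City of Haarlem’ and 6 in ‘Peter Stuyvesant’. For all unigenes the share lay between 7.84% and 9.72%. By this count ‘China Pink’ stood below ‘Peter Stuyvesant’, the reverse of their order by calls. Cluster-20417.240155 rose by 7.74 ± 0.93 in ‘City of Haarlem’ (adjusted p = 5.4e-09, edgeR), by 4.71 ± 0.81 in ‘Delft Blue’ (6.7e-06) and by 2.16 ± 0.72 in ‘China Pink’ (0.017) on the log2 scale. In ‘Peter Stuyvesant’ only Cluster-20417.238665 passed, with 2.04 ± 0.71 (adjusted p = 0.048, edgeR), while 9 members had an unadjusted p under 0.05.

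A pair of Muscari-matched unigenes had fold changes of opposite sign in ‘Delft Blue’ and ‘City of Haarlem’. Cluster-20417.243771 had 37.3, 36.4 and 38.1 FPKM in green and 90.1, 88.1 and 96.3 FPKM in coloured buds of ‘Delft Blue’, and it rose there by 2.01 ± 0.29 on the log2 scale (adjusted p = 3.3e-07, edgeR). In ‘City of Haarlem’ it had 40.1, 27.8 and 39.9 FPKM and then 27.1, 17.98 and 17.7 FPKM, with a log2 fold change of -0.22 ± 0.29 that did not pass. Cluster-20417.237805 had 58.2, 40.9 and 55.3 FPKM in green and 18.7, 11.99 and 15.8 FPKM in coloured buds of ‘City of Haarlem’. It fell there by 1.18 ± 0.29 on the log2 scale (adjusted p = 0.0013, edgeR), while its value in ‘Delft Blue’ was 0.85 ± 0.28, not past the fold threshold. For both unigenes the course over the stages differed between the 7 cultivars (adjusted p = 0.000998 and 0.00309, edgeR F test).

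Whether the course over the stages differed between cultivars was tested as such. The interaction of cultivar and stage passed for 13 of 17 members (23.3% of all unigenes, edgeR F test), among them the 5 leading Lycoris-matched unigenes, with adjusted p between 0.000467 and 0.000726. It did not pass for Cluster-20417.228929 (0.0507), Cluster-20417.211066 (0.0664), Cluster-20417.211067 (0.205) and Cluster-20417.304316 (0.146). This count rested on the flowers numbered 3: without them it was 1. Without the flowers numbered 1 or 2 it was 10 or 11.

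From Stage C to Stage A within cultivars, 6 members fell in ‘Delft Blue’ (4.73% of all unigenes fell) and 5 in ‘China Pink’ (2.49%), and none rose in either. Cluster-20417.236750 had 103, 66.1 and 90.1 FPKM in coloured buds and 9.72, 36.9 and 28.1 FPKM in open flowers of ‘Delft Blue’, without overlap. It fell there by 1.68 ± 0.43 on the log2 scale (adjusted p = 0.0062, edgeR), and in ‘China Pink’ by 1.52 ± 0.43 (0.024). The flowers of ‘China Pink’ overlapped, with 88.8, 30.3 and 52.6 FPKM and then 5.89, 34.6 and 12.8 FPKM, and in CPM none of its 17 tested members had every open flower below every coloured bud (12.7% of all unigenes). With edgeR no member was called in ‘Jan Bos’ (4.98%), ‘Pink Pearl’ (6.96%), ‘Gipsy Queen’ (5.06%), ‘City of Haarlem’ (0.468%) or ‘Peter Stuyvesant’ (15.8%). At an unadjusted p under 0.05 there were 5 in ‘Gipsy Queen’, 5 in ‘City of Haarlem’ and 0 in each of the other 3, and no other tool was run on these contrasts. The open flowers of ‘Gipsy Queen’ were far apart, with 961, 46.2 and 154 FPKM of Cluster-20417.240155, whereas those of ‘Peter Stuyvesant’ had 718, 709 and 727 FPKM.

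**Figure D3:**
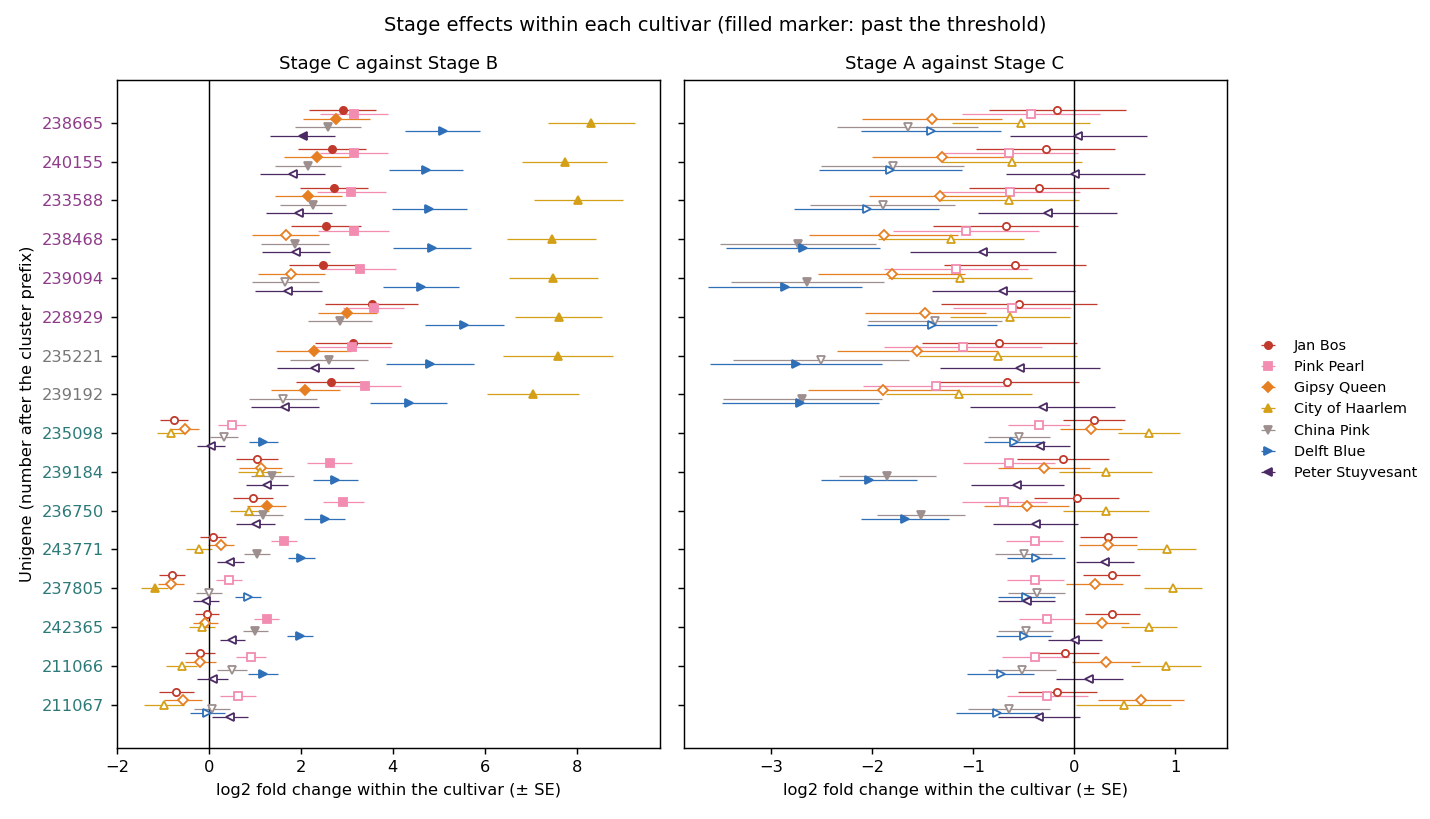
log2 fold change (± SE) of the 16 members with a mean of at least 1 FPKM within each cultivar, from Stage B to Stage C (left) and from Stage C to Stage A (right); each symbol is a cultivar and filled symbols passed the threshold. ‘City of Haarlem’ and ‘Delft Blue’ lie farthest right for the Lycoris-matched unigenes (purple labels), at 7.74 and 4.71 for Cluster-20417.240155. ‘Peter Stuyvesant’ has no point for Cluster-20417.228929.

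All 17 tested members differed between the 7 cultivars over the 3 stages (edgeR F test), against 71.6% of all unigenes, so that most of the transcriptome did likewise. The yellow ‘City of Haarlem’ served as the reference for pairs, and the comparisons with it share its 9 flowers. ‘Pink Pearl’ had 17 of 17 members higher (15.5% of all unigenes were called higher). ‘Jan Bos’ had 16 higher and 1 lower (33.0% called in either direction), and ‘Gipsy Queen’ had 9 higher (13.1% higher). ‘Peter Stuyvesant’ had 8 higher and 1 lower (34.2%). The member that was lower was Cluster-20417.228929 in both. ‘China Pink’ had 4 higher (19.9% higher), a share near that of all unigenes, and they were Cluster-20417.243771 (1.29 ± 0.17), Cluster-20417.211066 (1.01 ± 0.20), Cluster-20417.211067 (1.24 ± 0.25) and Cluster-20417.304316 (1.85 ± 0.68 on the log2 scale).

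For Cluster-20417.240155 the log2 difference from ‘City of Haarlem’ was 2.83 ± 0.43 (SE) in ‘Jan Bos’ (adjusted p = 2.1e-07, edgeR), 2.18 ± 0.42 in ‘Pink Pearl’ (1.7e-05), 1.24 ± 0.41 in ‘Peter Stuyvesant’ (0.01) and 1.13 ± 0.41 in ‘Gipsy Queen’ (0.021). Without the flowers numbered 1, the difference in ‘Gipsy Queen’ was 0.47, and its adjusted p over the 10 settings ran from 0.00037 to 0.51. Cluster-20417.236750 was higher by 2.10 ± 0.25 in ‘Pink Pearl’ (adjusted p = 8.2e-10, edgeR) and by 1.86 ± 0.25 in ‘Jan Bos’ (1.6e-08). The count in ‘Peter Stuyvesant’ was 3 without the flowers numbered 3, and that in ‘China Pink’ was 2.

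‘Delft Blue’ had 0 members called against ‘City of Haarlem’ with edgeR (36.7% of all unigenes called), with 6 at an unadjusted p under 0.05, 0 called by DESeq2 and 1 by limma-trend. Cluster-20417.211067 (0.99 ± 0.25) and Cluster-20417.243771 (0.94 ± 0.17) were past the adjusted p (0.00067 and 4.4e-06, edgeR) and close below the fold threshold. Without the flowers numbered 1, 3 members were called. For Cluster-20417.240155 the difference was -0.08 ± 0.40.

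‘China Pink’, the pale sport, was set against ‘Delft Blue’, from which it arose. No member was called with edgeR, DESeq2 or limma-trend, and 0.315% of all unigenes were called with edgeR. At an unadjusted p under 0.05 there were 3 members with edgeR, 3 with DESeq2 and 2 with limma-trend. Cluster-20417.240155 differed by 0.51 ± 0.40 on the log2 scale and Cluster-20417.236750 by -0.06 ± 0.24 (SE, adjusted p = 0.77 and 1, edgeR). At Stage C the sport had 1318, 213 and 720 FPKM of Cluster-20417.240155 and ‘Delft Blue’ had 1369, 567 and 878 FPKM, and the flowers overlapped.

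At Stage C alone, added after seeing the data, every member called higher than in ‘City of Haarlem’ was a Muscari-matched unigene. All 8 of them were higher in ‘Pink Pearl’ (27.6% of all unigenes called in either direction) and ‘Delft Blue’ (28.2%), and in ‘Gipsy Queen’ 5 were (22.6%). All 8 were also higher in ‘Jan Bos’ (27.7%) and ‘Peter Stuyvesant’ (31.6%), and 6 were higher in ‘China Pink’ (30.2%), with Cluster-20417.228929 lower in these 3. Cluster-20417.236750 had 43.3, 25.7 and 26.2 FPKM in ‘City of Haarlem’ and 275, 267 and 270 FPKM in ‘Pink Pearl’, a log2 difference of 3.12 ± 0.46 (adjusted p = 2.6e-07, edgeR). Cluster-20417.243771 differed by 2.46 ± 0.30 in ‘Pink Pearl’ (3.4e-09), 2.11 ± 0.30 in ‘Delft Blue’ and 2.19 ± 0.30 in ‘China Pink’. Of the Lycoris-matched unigenes, none was called higher in any of the 6 cultivars by edgeR, the only tool run here. Cluster-20417.240155 differed by 1.03 ± 0.70 in ‘Jan Bos’ (adjusted p = 0.29, edgeR) and by 0.66 ± 0.69 in ‘Pink Pearl’. Its difference was negative in ‘Gipsy Queen’ (-0.44 ± 0.69), ‘Delft Blue’ (-0.69 ± 0.69), ‘Peter Stuyvesant’ (-0.95 ± 0.69) and ‘China Pink’ (-1.04 ± 0.70), and none passed the adjusted p. The positive differences over the 3 stages in ‘Gipsy Queen’ and ‘Peter Stuyvesant’ thus did not hold at Stage C alone.

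Cluster-20417.228929 stood apart from the other Lycoris-matched unigenes. It had 0 counts in all 27 libraries of ‘Peter Stuyvesant’. With a limit of 3 counts over that group, which covers counting error only, its CPM was at least 1233-fold lower than in ‘Pink Pearl’ and at least 61.4-fold lower than in ‘Jan Bos’. In ‘Jan Bos’ it had 27.9, 26.2 and 18.1 FPKM at Stage C, against 592, 367 and 428 FPKM in ‘Pink Pearl’ and 287, 305 and 243 FPKM in ‘City of Haarlem’. At Stage C ‘Jan Bos’ was lower than ‘City of Haarlem’ by a log2 difference of -3.57 ± 0.69 (adjusted p = 5.4e-05, edgeR). Over the 3 stages the difference was -2.18 ± 0.73 (adjusted p = 0.013, edgeR), and -0.77 without the flowers numbered 3. The other Lycoris-matched unigenes were highest in ‘Jan Bos’ at Stage C. This unigene is 301 bp long, the shortest member, and whether another allele of it was assembled as another unigene was not tested.

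**Figure D4:**
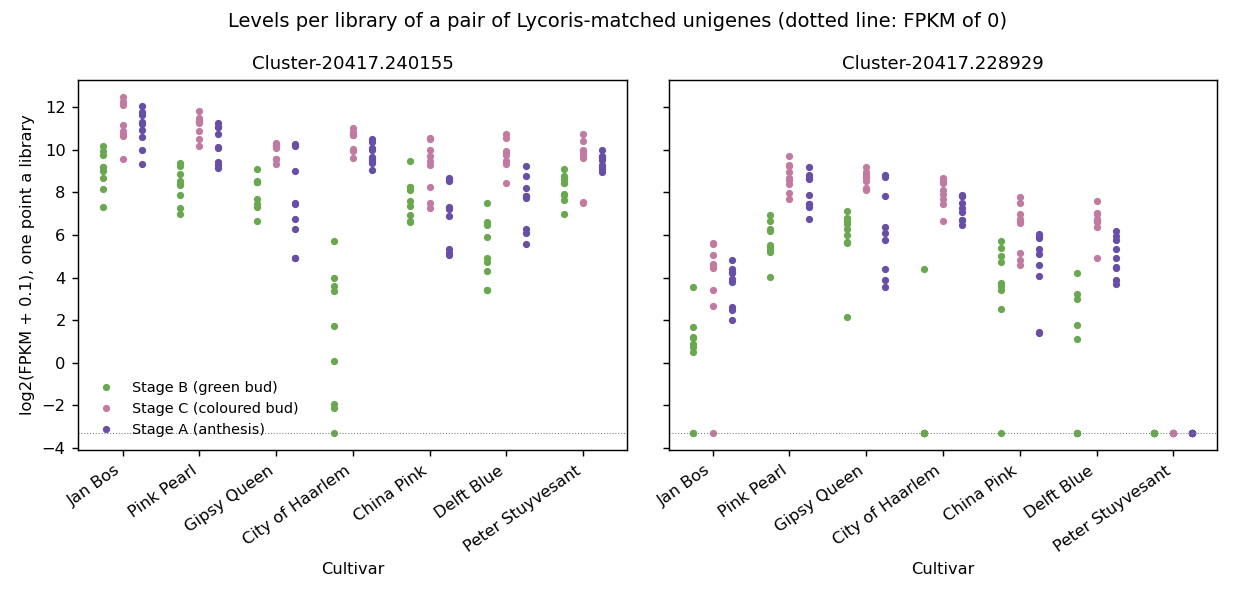
Levels of Cluster-20417.240155 (left) and Cluster-20417.228929 (right) as log2(FPKM + 0.1) in each library, by cultivar and stage, with 27 points per cultivar and the dotted line at an FPKM of 0. The right panel shows ‘Peter Stuyvesant’ on the dotted line in all 27 libraries and ‘Jan Bos’, with a mean of 24.1 FPKM at Stage C, below ‘Pink Pearl’, with 462.5 FPKM.

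Perianth tube and lobes were compared within flowers, separately at each stage, with the flower as a block. For the mean over cultivars, few members passed both thresholds. In green buds 1 of 17 was higher in the tube (1.65% of all unigenes). In coloured buds 1 of 16 was lower (1.46%) and in open flowers 1 of 17 (2.60%). At Stage B it was Cluster-20417.304316, higher in the tube by 2.19 ± 0.41 on the log2 scale (adjusted p = 2.2e-05, edgeR), which in the tubes of ‘Pink Pearl’ had 0.82, 3.13 and 2.38 FPKM. At Stages C and A it was Cluster-20417.235221, with log2 differences of -1.22 ± 0.19 (adjusted p = 2.4e-06, edgeR) and -1.06 ± 0.15 (2.2e-07). In the same libraries the median sum of the light-harvesting unigenes was lower in the tube at Stage B but higher in it at Stage C, by the values above, and at Stage A (1683 FPKM against 887 in outer and 880.0 in inner lobes). That of the pollen and anther unigenes was higher in the tube at Stage B (1194 FPKM against 989 and 1014), at Stage C (1537 against 1115 and 1268) and, as given above, at Stage A. Their part in these results was not tested. The count at Stage C was 6 without the flowers numbered 3. The count at Stage A was 0 without the flowers numbered 1 and 2 without those numbered 2 or 3, and DESeq2 and limma-trend called 0 there.

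Most Muscari-matched unigenes were lower in the tube by less than the fold threshold at all stages. In open flowers of ‘Jan Bos’, Cluster-20417.242365 had 85.4, 111 and 63.1 FPKM in outer lobes, 73.1, 102 and 70.0 FPKM in inner lobes and 33.4, 63.4 and 33.6 FPKM in tubes. Its tube value lay below the mean of the lobes in 20 of 21 green buds, 21 of 21 coloured buds and 21 of 21 open flowers. The log2 differences were -0.74 ± 0.06, -0.76 ± 0.08 and -0.99 ± 0.07 (adjusted p = 7.2e-15, 1.3e-10 and 2.1e-15, edgeR). Cluster-20417.235098 had -0.80 ± 0.05, -0.64 ± 0.07 and -0.88 ± 0.08, and Cluster-20417.243771 had -0.80 ± 0.06, -0.65 ± 0.07 and -0.81 ± 0.07. In CPM, 4 of 17 members had the tube below the lobes in at least 20 of 21 green buds, 7 did so in coloured buds and 2 in open flowers, against 1.02%, 0.460% and 0.660% of all unigenes.

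The 2 Muscari-matched unigenes that rose from green to coloured bud had smaller differences. Cluster-20417.236750 had log2 differences between tube and lobes of -0.12 ± 0.05, -0.02 ± 0.07 and 0.20 ± 0.10 at Stages B, C and A, and Cluster-20417.239184 had -0.13 ± 0.07, -0.19 ± 0.10 and 0.11 ± 0.12. None passed the adjusted p (0.13 to 1, edgeR). At Stage A the tube was above the lobes in 15 and 14 of 21 flowers.

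For the Lycoris-matched unigenes each stage was fitted separately, and a difference in the tube effect between stages was not tested. At Stage C the 5 leading ones had log2 differences from -0.95 to -0.87, past the adjusted p (8.8e-07 or less, edgeR) but not the fold, and each was lower in the tube in 19 of 21 flowers. At Stage B the fitted means over cultivars lay between -0.14 and 0.06, although 14 or 15 of 21 green buds had the tube lower and the medians of the log2 ratio over flowers lay between -0.81 and -0.56. At Stage A the fitted means lay between -0.60 and -0.13. However, only 10 to 13 of 21 open flowers had the tube lower, and the medians of the log2 ratio lay between -0.28 and 0.30.

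Cultivars differed in this respect in green buds. The tube effect differed between cultivars at Stage B for 10 members (4.04% of all unigenes, edgeR F test), a test added after seeing the data. These included all 6 Lycoris-matched unigenes, with adjusted p from 9.0e-13 for Cluster-20417.239094 to 0.03 for Cluster-20417.228929, the latter absent from 1 cultivar. In green buds of ‘City of Haarlem’, Cluster-20417.240155 had 3.25, 0 and 0.94 FPKM in outer lobes, 10.2, 0.16 and 0.13 FPKM in inner lobes and 15.8, 12.1 and 53.2 FPKM in tubes. Each tube was above its own lobes, and the log2 difference was 3.58 ± 0.45 (adjusted p = 1.7e-08, edgeR).

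‘Gipsy Queen’ shared the higher level in the tube. There the same unigene had 157, 363 and 173 FPKM in outer lobes, 209, 375 and 102 FPKM in inner lobes and 364, 556 and 353 FPKM in tubes. Its log2 difference was 0.99 ± 0.22, just under the fold threshold, and that of Cluster-20417.239094 was 1.25 ± 0.17 (adjusted p = 4.4e-07, edgeR).

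In the other 5 cultivars the tube of green buds was lower in the mean. ‘Jan Bos’ had 518, 406 and 985 FPKM of Cluster-20417.240155 in outer lobes, 850, 585 and 1152 FPKM in inner lobes and 284, 160 and 590 FPKM in tubes, a log2 difference of -1.26 ± 0.23 (adjusted p = 7.3e-05, edgeR). In ‘Delft Blue’ it was -1.59 ± 0.31 (0.00012), and there outer lobes (60.3, 89.0 and 178 FPKM) also lay above inner lobes (10.6, 19.4 and 97.5 FPKM) in each flower. ‘Pink Pearl’ (-0.99), ‘Peter Stuyvesant’ (-0.72) and ‘China Pink’ (-0.71) did not pass the fold.

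By count, members called at Stage B were 6 higher in the tube and 1 lower in ‘City of Haarlem’ (2.63% of all unigenes called), 5 higher in ‘Gipsy Queen’ (0.567% of all higher) and 10 lower in ‘Delft Blue’ (2.14% of all lower). ‘Jan Bos’ had 6 lower and 1 higher (3.31% called). ‘Pink Pearl’ had 1 in each direction (2.24% called), ‘China Pink’ 2 lower (2.00% lower) and ‘Peter Stuyvesant’ 1 lower (1.46% lower).

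At Stage C no member had a tube effect that differed between cultivars with edgeR, with 0 at an unadjusted p under 0.05, against 4.62% of all unigenes, and no other tool was run. At Stage A it differed for 6 members (4.17%). In open flowers of ‘Jan Bos’ Cluster-20417.240155 had 637, 1557 and 1002 FPKM in tubes against 2523, 4243 and 2336 FPKM in outer lobes, without overlap, a log2 difference of -1.74 ± 0.29 with both lobe types (adjusted p = 3.8e-05, edgeR). In ‘Peter Stuyvesant’ it had 1024, 723 and 847 FPKM in tubes and 498, 585 and 548 FPKM in outer lobes. ‘Jan Bos’ had 10 members lower in the tube at Stage A (2.36% of all lower), and ‘Peter Stuyvesant’ (6.56% called) and ‘Delft Blue’ (5.14%) had 0 called with edgeR, with 5 and 7 at an unadjusted p under 0.05.

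**Figure D5:**
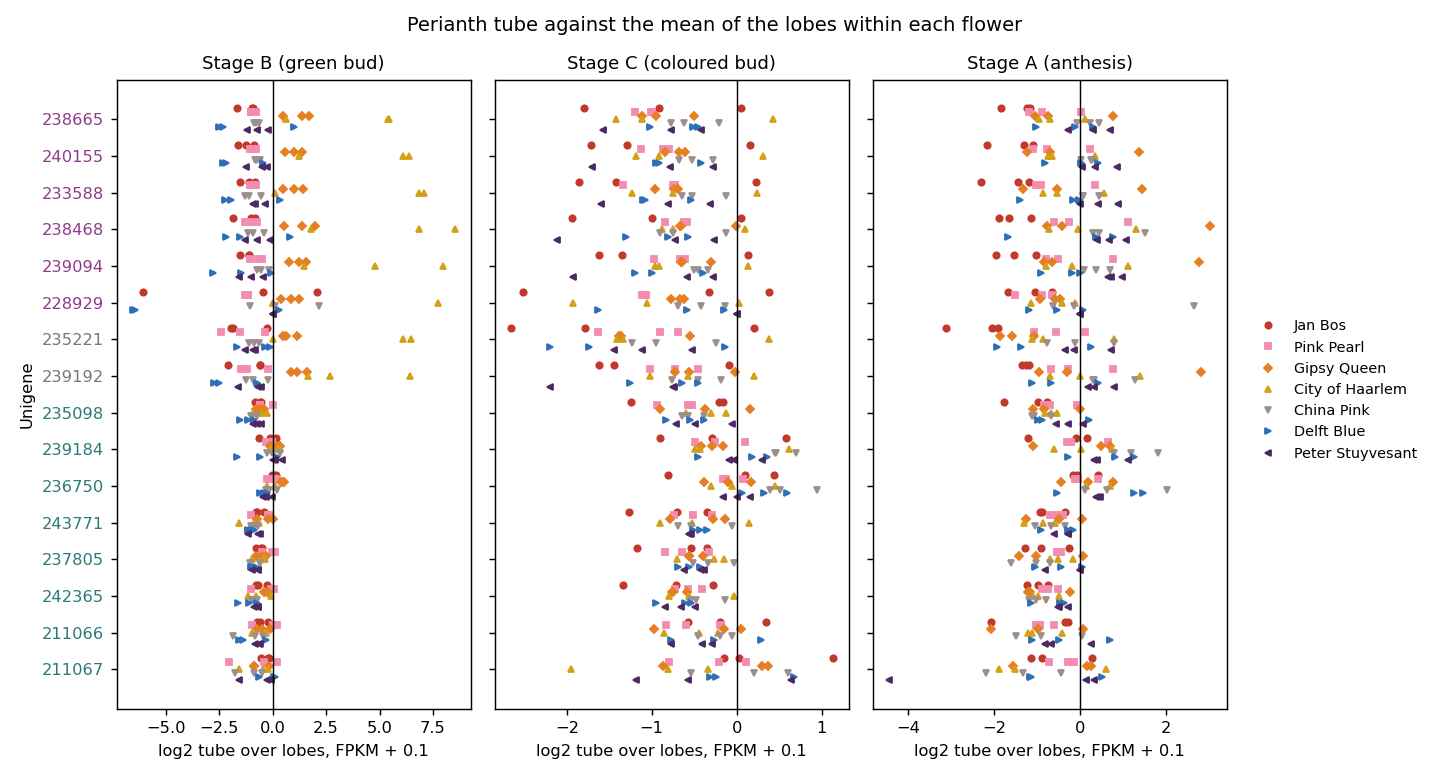
Perianth tube over the mean of the lobes within each flower, as the log2 ratio of (FPKM + 0.1), for the 16 members with a mean of at least 1 FPKM; each symbol is a flower, coloured by cultivar, with 21 flowers per stage. At Stage B the flowers of ‘City of Haarlem’ and ‘Gipsy Queen’ lie right of 0 for Cluster-20417.240155 and those of the other cultivars left of it, while Cluster-20417.242365 is left of 0 in 21 of 21 flowers at Stages C and A.

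Outer and inner lobes did not differ past the threshold in the mean over cultivars. With edgeR 0 members were called at each stage, where 0.286%, 0.162% and 0.0417% of all unigenes were called in green buds, coloured buds and open flowers. At an unadjusted p under 0.05 there were 2, 1 and 0 members, and DESeq2 and limma-trend called 0 as well. Cluster-20417.235098 was past the adjusted p at Stage B with -0.19 ± 0.05 (adjusted p = 0.028, edgeR), a small difference.

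Over the 63 flowers, levels were mostly more alike within a set than between the sets, as a description over flowers that share cultivar, stage and library depth. Pearson's r of log2(FPKM + 0.1) had a median of 0.969 (0.336 to 0.998) over the 15 pairs of Lycoris-matched unigenes, 0.677 (0.311 to 0.979) over the 28 pairs of Muscari-matched unigenes and 0.239 (-0.235 to 0.818) over the 48 pairs between the sets. There were exceptions. Cluster-20417.228929 had r of 0.336 to 0.437 with the other Lycoris-matched unigenes. Cluster-20417.239184 and Cluster-20417.236750, which had r of 0.979 with each other, had 0.666 to 0.818 with the 5 leading Lycoris-matched unigenes and 0.311 to 0.655 with the other 6 Muscari-matched ones. The 3 members with the highest FPKM had r between 0.987 and 0.998 with each other. With the members left out, the unigenes most like these 3 were sought among 78844 unigenes. They were Cluster-20417.238603, Cluster-20417.237180 and Cluster-20417.255235, each with r between 0.973 and 0.983. The first has a myricetin 3-O-rhamnosyltransferase as its best Swiss-Prot entry, a hypothetical protein as its best protein match and no KO. The other 2 match a flavonoid glycosyltransferase of Albuca bracteata, but their KO is a scopoletin glucosyltransferase, an enzyme named for a coumarin, as is the Swiss-Prot entry of Cluster-20417.255235. All 3 thus carry names of glycosyltransferases, with different acceptors in different databases.

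The other enzymes of the pathway were taken by KO as well. From Stage B to Stage C, 6 of 8 tested unigenes of flavanone 3-hydroxylase, 5 of 19 of dihydroflavonol reductase and 3 of 6 of anthocyanidin synthase rose, and none of these fell, where 7.70% of all unigenes rose and 14.8% fell. Chalcone synthase had 4 rising and 7 falling of 21, flavonoid 3'-hydroxylase 3 and 12 of 42, its rising share being near that of all unigenes, flavonol 3-O-glucosyltransferase 1 and 1 of 4, and chalcone isomerase 0 and 1 of 7. The unigene with the highest mean FPKM in each list rose by 6.15 ± 0.28 for flavanone 3-hydroxylase, 4.34 ± 0.31 for flavonoid 3'-hydroxylase, 4.13 ± 0.31 for anthocyanidin synthase and 3.67 ± 0.27 for dihydroflavonol reductase on the log2 scale. That of chalcone synthase fell by 1.07 ± 0.14 (adjusted p = 8.5e-09, edgeR). That of flavonol 3-O-glucosyltransferase rose by 1.57 ± 0.17 (adjusted p = 2.9e-11, edgeR), and that of chalcone isomerase had -0.18 ± 0.13 (adjusted p = 0.34). Over the 63 flowers, r with Cluster-20417.238665 was 0.958 for the leading dihydroflavonol reductase, 0.957 for anthocyanidin synthase and 0.949 for flavonoid 3'-hydroxylase. In between lay flavanone 3-hydroxylase (0.814) and flavonol 3-O-glucosyltransferase (0.676), while r was 0.212 for chalcone isomerase and 0.00283 for chalcone synthase.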

How the data were processed

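RNA-Seq was analysed in 63 flowers with 3 libraries each. The authors assembled the clean reads de novo with Trinity, clustered the transcripts with CORSET, called the longest one in a cluster its unigene, aligned with Bowtie and counted with RSEM. The deposited expected counts are not normalised, and the authors converted them to FPKM, used as deposited. Total counts were 12602472 to 20175882 per library. The deposited mapping rates were not used.

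Expected counts were rounded, and unigenes that reached 10 counts in 3 or more columns were tested with edgeR 4.0.16 (R 4.3.3; TMM, quasi-likelihood), with p-values adjusted over all unigenes tested. Stage and cultivar fits used flowers (3 pieces summed) and 21 group means. Partition fits used the flower as a block, since its pieces come from 1 flower and deviated together (median r 0.437 between pieces of a flower). No 2 libraries were identical (highest r 0.970). All 18 members are named.

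Alternatives were DESeq2 1.42.0, limma-trend (limma 3.58.1, prior count 2), median-ratio size factors, no low-count filter, filterByExpr, each library as a replicate, the replicate number as a block, and leaving out each replicate number. For FPKM, pseudocounts other than 0.1 were tried. Fits by cultivar, comparisons at Stage C alone and CPM per kb were added after seeing the data. Members and lists were chosen with earlier results of these data known. Flavonoid 3',5'-hydroxylase and flavonol synthase were not analysed here. Levels were computed with pandas 2.3.3 and numpy 2.4.6 in Python 3.11.15, and drawn with matplotlib 3.10.9.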

Additional observations from a re-analysis of the deposited data

Results flagged for a closer look

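Each result here had effects of one contrast that differed between cultivars by a test of the difference itself (edgeR F test, adjusted p). Between stages this held for Cluster-20417.238665 (0.000467), Cluster-20417.240155 (0.000726), Cluster-20417.233588 (0.000599), Cluster-20417.238468 (0.000631), Cluster-20417.239094 (0.000492), Cluster-20417.235221 (0.0408), Cluster-20417.235098 (0.0128), Cluster-20417.239184 (0.025), Cluster-20417.239192 (0.00301), Cluster-20417.236750 (0.013), Cluster-20417.243771 (0.000998), Cluster-20417.237805 (0.00309) and Cluster-20417.242365 (0.000909). Without the flowers numbered 3, 1 member passed. Between tube and lobes at Stage B it held for Cluster-20417.238665 (1.71e-08), Cluster-20417.240155 (9.29e-12), Cluster-20417.233588 (9.14e-10), Cluster-20417.238468 (3.04e-10), Cluster-20417.239094 (9.02e-13), Cluster-20417.235221 (0.00134), Cluster-20417.235098 (0.0157), Cluster-20417.228929 (0.03), Cluster-20417.239192 (3.53e-07) and Cluster-20417.236750 (0.00757). At Stage A it held for Cluster-20417.238665 (0.0239), Cluster-20417.240155 (0.0227), Cluster-20417.233588 (0.0125), Cluster-20417.239094 (0.0196), Cluster-20417.235221 (0.00423) and Cluster-20417.239192 (0.0338).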

How the results depend on the processing

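Of 17 counts of members called, 8 moved by over 1.5 times under at least 1 alternative and 9 did not, of which 3 were the counts of 0 between outer and inner lobes. Leaving out the flowers of each replicate number in turn gave 9 to 10 members for Stage C against Stage B, 4 to 8 for Stage A against Stage C, 17 to 17 between the 7 cultivars and 1 to 11 for cultivar by stage. Against ‘City of Haarlem’ it gave 16 to 17 for ‘Jan Bos’, 15 to 17 for ‘Pink Pearl’, 6 to 9 for ‘Gipsy Queen’, 2 to 6 for ‘China Pink’, 0 to 3 for ‘Delft Blue’ and 3 to 12 for ‘Peter Stuyvesant’. It gave 0 to 0 for ‘China Pink’ against ‘Delft Blue’, and for the tube against the lobes 1 to 1 at Stage B, 1 to 6 at Stage C and 0 to 2 at Stage A. For ‘Delft Blue’ against ‘City of Haarlem’ limma-trend called 1, and for ‘China Pink’ against ‘Delft Blue’ each library taken as a replicate gave 1, pieces of a flower then counting as independent. For the tube at Stage A, DESeq2 and limma-trend called 0. The cause of these shifts was not tested. Over single members and settings, 42 fold changes lost and 35 gained the threshold, and none reversed. The log2 tube to lobes ratio of Cluster-5222.0 at Stage A was 0 in all 21 flowers, so a shift in it could not be judged. Depth limits Cluster-20417.304316 and Cluster-5222.0, with 591 and 17 counts.

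The labels do not state whether same-numbered flowers share more than a number. The median correlation of their deviations was 0.012 (-0.451 to 0.508), against -0.0048 (-0.486 to 0.407) for other numbers. A median cannot show whether some of them share more. With the replicate block, 10 members were called for Stage C against Stage B, 5 for Stage A against Stage C, 14 for cultivar by stage and 3 for ‘China Pink’ against ‘City of Haarlem’, and no count moved by over 1.5 times. Without the flower as a block, 1 member was called for the tube at each stage.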
